A study of Drosophila melanogaster with 12 samples.

Results

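The sperm leucyl aminopeptidases (S-Laps) of *Drosophila melanogaster* are a family of 8 genes in the deposited tables, *S-Lap1*, *S-Lap2*, *S-Lap3*, *S-Lap4*, *S-Lap5*, *S-Lap7*, *S-Lap8* and *loopin-1*, out of 21076 genes in all. Their rows were found by gene name, the family itself was picked with earlier results of these data known, and it has 12 of the annotated isoforms in the isoform table. *loopin-1* is the gene that RefSeq also lists as *S-Lap6*. RNA came from whole bodies of about 50 adult males per preparation, and the age of the males was not given in the sources used here. The tested males were *Mettl16* mutants that carried the genotype labelled Mettl161-9, a frameshift allele made by genome editing, and the control males were w1118. Each genotype had 3 input libraries of poly(A) RNA and 3 m6A immunoprecipitation (IP) libraries, 12 libraries in total. Only 1 mutant allele was sequenced, so effects of the allele and of any other difference between the 2 strains cannot be told apart.

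S-Laps belong to the M17 family of metallopeptidases, whose best known member, leucyl aminopeptidase, removes leucine from the N terminus of peptides. In *Drosophila* they are among the most abundant proteins of the mature sperm, and several members lack residues that catalysis in this family needs. They are found in the paracrystalline material that fills the major mitochondrial derivative, the mitochondrion that runs along the sperm tail after the mitochondria of the spermatid have fused and elongated. Mettl16 is the fly counterpart of METTL16, a methyltransferase that places N6-methyladenosine (m6A) on U6 snRNA, a component of the spliceosome.

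Input libraries held between 5.32 and 6.48 aligned gigabases each. Libraries of 1 genotype correlated with r between 0.9947 and 0.9962 across genes on log2(FPKM + 1), and libraries of different genotypes with r between 0.9715 and 0.9762. *Mettl16*, listed as *CG7544* (FBgn0033994), had 0.430, 0.285 and 0.232 FPKM in mutants, against 0.971, 0.824 and 1.19 FPKM in w1118, so the low level of the edited gene followed the labels. Male tissues were present in both genotypes. The summed level of 21 spermatid markers was 2738 to 3163 FPKM in mutants and 3835 to 4298 FPKM in w1118, and the summed level of 12 eggshell markers, which mark female tissue, stayed at 2.18 to 3.21 FPKM in mutants and 2.87 to 4.33 FPKM in w1118. Of these only *Cp15* was abundant enough to be tested, and it was not called.

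The gene level of every S-Lap was lower in *Mettl16* mutants. Mutant males kept between 59.2% of the w1118 level, for *S-Lap3*, and 80.4%, for *S-Lap5*. The levels are FPKM, fragment counts scaled to sequencing depth and, in the deposited gene table, to the merged exon length of the gene, and in all 8 genes the 3 mutant libraries lay below the 3 w1118 libraries.

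**Figure D1:**
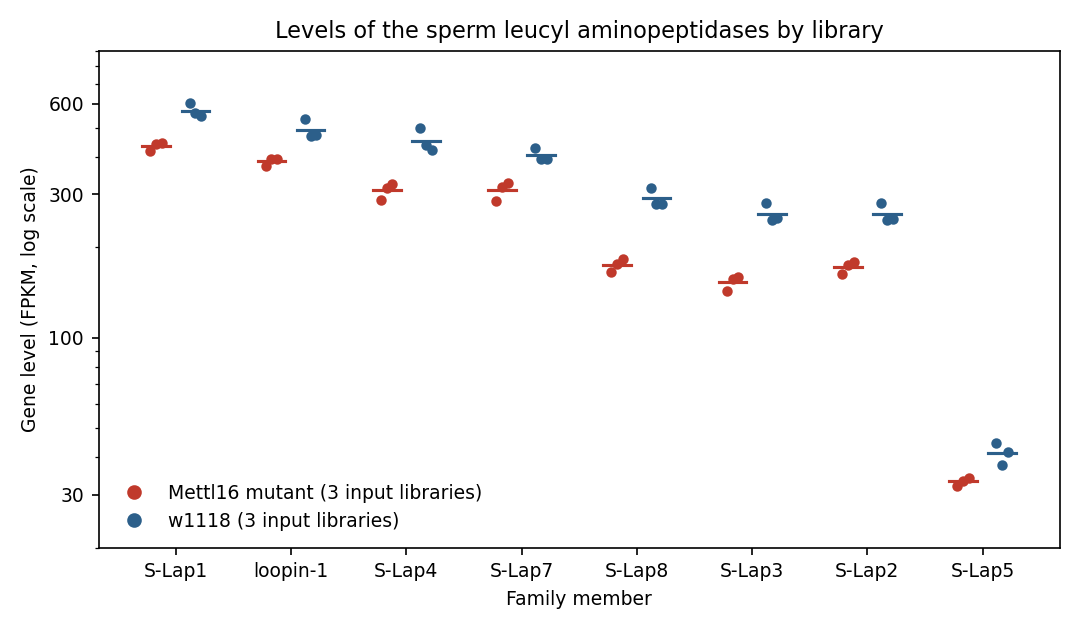
Gene level of each S-Lap in FPKM on a log axis, with 1 point for each input library, a bar for the mean, *Mettl16* mutants in red on the left and w1118 in blue on the right. In each gene the 3 mutant points sit below the 3 w1118 points, and *S-Lap5* sits far below the other members in both genotypes.

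*S-Lap1* (*CG6372*, chromosome 3L:8617235-8619474, plus strand) was the most abundant member in both genotypes. It had 417, 442 and 445 FPKM in mutants, against 602, 560 and 547 FPKM in w1118. Its log2 fold change, computed on log2(FPKM + 1), was -0.39 ± 0.06 (SE; limma adjusted p = 0.00136). It is the only member whose entry in the deposited annotation carries the term major mitochondrial derivative. *S-Lap2* (*CG32351*, 3L:8619888-8622091, plus strand) starts 413 bases after *S-Lap1* ends. It had 163, 174 and 179 FPKM in mutants, against 281, 246 and 247 FPKM in w1118, a log2 fold change of -0.58 ± 0.07 (SE; limma adjusted p = 0.000355). The neighbours of this tandem pair thus differed in level, with *S-Lap1* above *S-Lap2* in each of the 6 libraries.

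*S-Lap3* and *S-Lap4* lie farther along the same arm, 21886 bases apart. *S-Lap3* (*CG32063*, 3L:10465187-10468974, plus strand) had 143, 157 and 159 FPKM in mutants, against 279, 245 and 250 FPKM in w1118. Its log2 fold change of -0.75 ± 0.07 was the largest fall in the family (SE; limma adjusted p = 0.000125). *S-Lap4* (*CG32064*, 3L:10490861-10492934, plus strand) had 288, 315 and 325 FPKM in mutants, against 496, 436 and 422 FPKM in w1118. It fell by 0.54 on the log2 scale (SE 0.08; limma adjusted p = 0.000957). *S-Lap4* lies wholly within the span of *Rbfox1*, a gene on the same strand for an RNA-binding protein, whose own level was 9.49, 9.47 and 9.29 FPKM in mutants and 11.1, 8.51 and 9.04 FPKM in w1118.

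The other 4 members are on chromosome 2R, the arm that also carries *Mettl16*. *S-Lap5* (*CG18369*, 2R:13596677-13598750, plus strand) was the least abundant member, with 32.2, 33.4 and 34.2 FPKM in mutants, against 44.6, 37.7 and 41.7 FPKM in w1118. Its change was the smallest, at -0.30 ± 0.07 (SE; limma adjusted p = 0.00787). *S-Lap7* (*CG13340*, 2R:13778124-13780245) is the only member on the minus strand. It had 285, 317 and 326 FPKM in mutants, against 426, 394 and 393 FPKM in w1118, a log2 fold change of -0.38 ± 0.07 (SE; limma adjusted p = 0.00269). Its whole span overlaps that of *Cpr50Ca*, a cuticle protein gene on the plus strand that stayed under 1 FPKM in all libraries.

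*S-Lap8* (*CG4439*, 2R:16491100-16493233, plus strand) had 165, 176 and 182 FPKM in mutants, against 314, 279 and 278 FPKM in w1118. With a log2 fold change of -0.73 ± 0.07 it fell about as far as *S-Lap3* (SE; limma adjusted p = 0.00012). *loopin-1* (*CG4750*, 2R:16534943-16537086, plus strand) begins 41709 bases after *S-Lap8* ends. It had 372, 394 and 394 FPKM in mutants, against 533, 468 and 471 FPKM in w1118, and fell by 0.34 on the log2 scale (SE 0.07; limma adjusted p = 0.00424). These 2 genes lie 1.34 and 1.39 Mb from *Mettl16*, while *S-Lap7* and *S-Lap5* lie 1.37 and 1.55 Mb to its other side.

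In the fit over all genes, 8 of 8 members were called lower at an adjusted p under 0.05, against 26.7% of the 13866 genes tested and 39.6% of the 1970 genes that were at least as abundant as *S-Lap5* on the mean of the 6 libraries. Groups that did not overlap, with mutants lower, were found in 8 of 8 members and in 30.5% of the tested genes. No member was called higher, either at that threshold or at an unadjusted p under 0.05 in limma, against 22.9% of the tested genes. None of the members reached a fall of 1 on the log2 scale, a size that the study asked for together with an unadjusted p under 0.05 and that 3.36% of the tested genes reached. The median log2 fold change was -0.46 over the 8 members and 0.01 over all tested genes. Members on 3L had a median of -0.56 and members on 2R a median of -0.36. In bulk RNA of whole males, fewer cells of a type and less RNA per cell cannot be told apart.

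**Figure D2:**
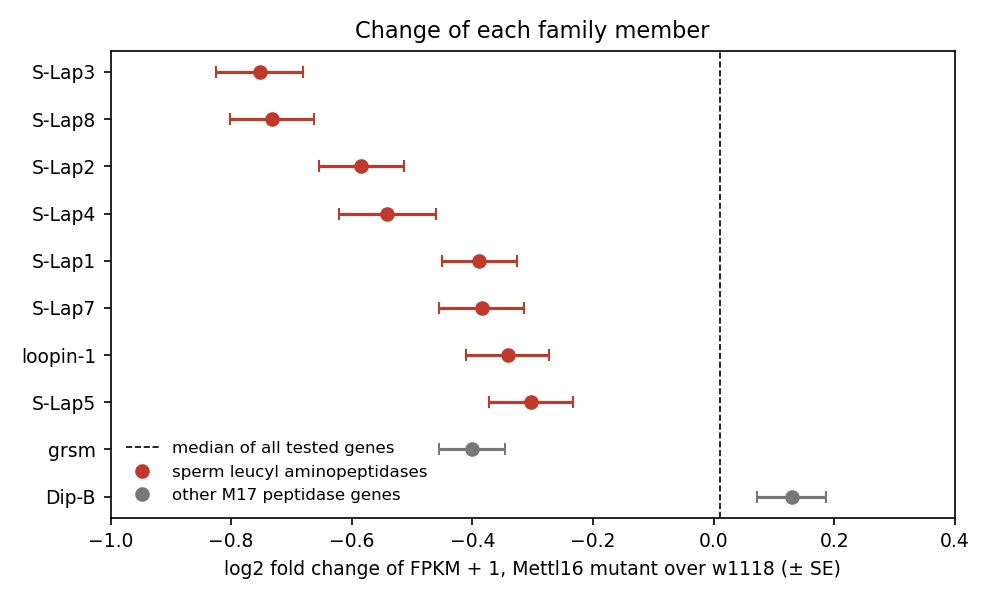
Log2 fold change of FPKM + 1 for each S-Lap and for *grsm* and *Dip-B*, *Mettl16* mutants over w1118, with SE bars from the limma fit and a dashed line at the median of all tested genes. The 8 S-Laps lie between -0.75 and -0.30, *grsm* lies among them at -0.40, and *Dip-B* lies at 0.13.

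The family as a whole amounted to 1864, 2008 and 2045 FPKM in mutants, against 2977, 2665 and 2650 FPKM in w1118. This was 0.425% ± 0.013 of the FPKM of all genes in mutants and 0.569% ± 0.039 in w1118 (SD, n = 3 each). The members did not all keep their part of this sum. *S-Lap3* made up 7.75% ± 0.09 of the family in mutants and 9.34% ± 0.12 in w1118, and *S-Lap8* made up 8.84% ± 0.08 in mutants and 10.5% ± 0.04 in w1118 (SD, n = 3 each). In the other direction, *loopin-1* held 19.6% ± 0.3 of the sum in mutants and 17.7% ± 0.2 in w1118. The shares of 4 members, *S-Lap2*, *S-Lap3*, *S-Lap4* and *S-Lap8*, were lower in all mutant libraries than in any w1118 library, and those of the other 4 members were higher. For *S-Lap4* the groups were barely apart, at 15.45% to 15.91% in mutants and 15.92% to 16.68% in w1118, and they overlapped when isoform FPKM were summed instead. By those sums *S-Lap3* made up 9.34% ± 0.11 of the family in mutants and 11.2% ± 0.2 in w1118 (SD, n = 3 each). These shares were not tested, and 3 libraries against 3 cannot give an exact p below 0.1.

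Within each genotype the members also shared differences between libraries. Mutant replicate 1 had the lowest and mutant replicate 3 the highest mutant level of all 8 members, and w1118 replicate 1 had the highest w1118 level of all 8. This was not particular to the family, since the sum of the 21 spermatid markers was lowest and highest in the same libraries. The summed FPKM of all genes rose from 455217 in mutant replicate 1 to 470859 in mutant replicate 3, but w1118 replicate 1 had the lowest w1118 sum, 484438. The share of all genes with this pattern was not counted. Without w1118 replicate 1 the log2 fold change of *S-Lap5* was -0.25 (limma adjusted p = 0.0174), its smallest change when any single library was left out, and all 8 members were still called lower. Quantile normalization ended the call of *S-Lap5*, at -0.14 (limma adjusted p = 0.0721), and of no other member.

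The order of levels was nearly the same in both genotypes. In mutants the means ran *S-Lap1*, *loopin-1*, *S-Lap7*, *S-Lap4*, *S-Lap8*, *S-Lap2*, *S-Lap3* and *S-Lap5*, and neighbours overlapped in range only for *S-Lap7* with *S-Lap4* and *S-Lap8* with *S-Lap2*. In w1118 the order was *S-Lap1*, *loopin-1*, *S-Lap4*, *S-Lap7*, *S-Lap8*, *S-Lap3*, *S-Lap2* and *S-Lap5*. There the ranges overlapped for *loopin-1* with *S-Lap4*, *S-Lap4* with *S-Lap7*, *S-Lap8* with *S-Lap3* and *S-Lap3* with *S-Lap2*. *S-Lap5* stood apart in both, at 33.2 ± 1.0 FPKM in mutants and 41.3 ± 3.4 FPKM in w1118 (SD, n = 3 each). *S-Lap1* ranked between place 95 and place 176 among all genes over the 6 libraries, while *S-Lap5* ranked between place 1816 and place 2137. The merged length is that of the longest model for 6 members but exceeds it for *loopin-1*, at 2144 against 2078 bases, and for *S-Lap3*, at 3014 against 2640 bases, so the gene FPKM of *S-Lap3* is low beside the others. Its isoform FPKM, each scaled to its own length, summed to 191 ± 11 FPKM in mutants and 322 ± 23 FPKM in w1118 (SD, n = 3 each). By the means this moved it up to place 5, above *S-Lap8* and *S-Lap2*, in both genotypes. Its range still overlapped that of *S-Lap8*, at 178 to 198 against 165 to 182 FPKM in mutants and 305 to 348 against 278 to 314 FPKM in w1118. In mutants it also just overlapped that of *S-Lap2*. How reads shared by related members were divided among them is not given in the sources used here, so the levels of single members carry that uncertainty.

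The deposited annotation gives all 8 genes the term manganese ion binding. It splits the family by KEGG orthology entry into 6 genes under K11142 and *S-Lap3* and *S-Lap7* under K01255. This split did not follow the changes, since *S-Lap3* had the largest fall and *S-Lap7* one of the smaller ones.

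*loopin-1* held the largest isoform change of the family. It has 2 annotated transcript models that share a start. FBtr0087092 is a single exon of 2022 bases, and FBtr0113086 has 2 exons with 2078 bases of exon, an intron of 66 bases and an end that lies 122 bases farther on. FBtr0113086 had 0.420, 0.565 and 0.524 FPKM in mutants, against 98.9, 86.9 and 87.1 FPKM in w1118. The mutant mean was 0.553% of the w1118 mean, which is 181-fold lower. This model was thus almost missing from every mutant library. Its read coverage per base was 2.65, 3.56 and 2.78 in mutants and 606, 562 and 565 in w1118.

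The log2 fold change of FBtr0113086 was -5.93 ± 0.09 on log2(FPKM + 1) (SE; limma adjusted p = 8.68e-06), and -7.24 with a pseudocount of 0.1. Among 23974 isoforms tested, only 3 fell further. FBtr0087092, in contrast, had 394, 417 and 417 FPKM in mutants, against 463, 407 and 410 FPKM in w1118, and these ranges overlap. Its log2 fold change was -0.06 ± 0.07 (SE; limma adjusted p = 0.59), and without w1118 replicate 1 it was 0.0021.

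**Figure D3:**
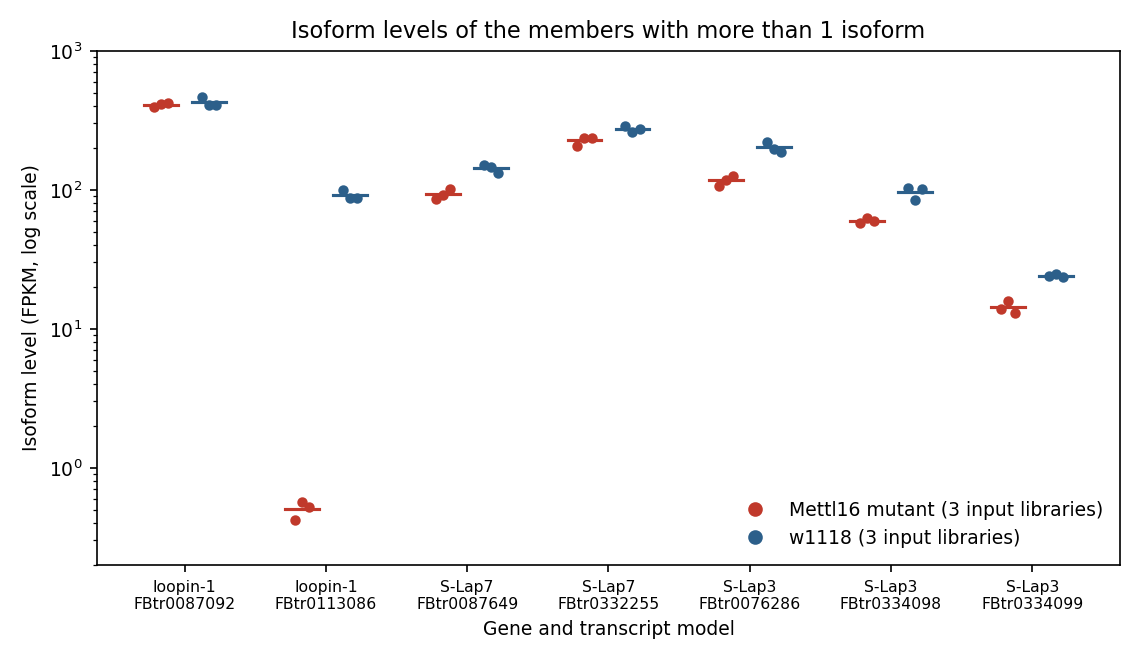
Isoform level in FPKM on a log axis for the 3 members with more than 1 annotated isoform, with 1 point for each input library, a bar for the mean, *Mettl16* mutants in red on the left and w1118 in blue on the right. FBtr0113086 of *loopin-1* is near 0.5 FPKM in the 3 mutant libraries and near 90 FPKM in the 3 w1118 libraries, while FBtr0087092 of the same gene overlaps between genotypes.

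Measured as a share of the gene's isoforms, FBtr0113086 made up 0.107%, 0.136% and 0.125% of *loopin-1* in mutants, against 17.6%, 17.6% and 17.5% in w1118. The difference was -17.4 percentage points (limma on the arcsine square root of the share, adjusted p = 0.00163). Share changes past the threshold, in either direction, were found for 4.04% of 18896 isoforms tested. Of these 763 isoforms, 538 had a share change at least as large as that of FBtr0113086, so its size was common among called changes. The deposited gene FPKM of *loopin-1* equals the sum of its isoform FPKM, each multiplied by its length, divided by 2144 bases, the length of the gene, in all 6 libraries. Taken apart in this way, FBtr0113086 supplied 0.488 ± 0.073 FPKM of the gene level in mutants and 88.2 ± 6.7 FPKM in w1118, and FBtr0087092 supplied 386 ± 13 FPKM in mutants and 403 ± 30 FPKM in w1118 (SD, n = 3 each). The difference in gene level between the genotypes therefore lay mostly in the model FBtr0113086. The levels of both models are estimates from reads that they largely share.

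*S-Lap7* and *S-Lap3*, the other members with more than 1 isoform, showed no called change of isoform share. *S-Lap7* has 2 single-exon models that differ in where they end. The longer one, FBtr0087649, had 86.0, 92.2 and 101.1 FPKM in mutants, against 151, 147 and 133 FPKM in w1118, with a log2 fold change of -0.62 (limma adjusted p = 0.00412). The shorter one, FBtr0332255, had 208, 236 and 236 FPKM in mutants, against 287, 258 and 272 FPKM in w1118, with a log2 fold change of -0.27 (limma adjusted p = 0.0455). That call was lost whichever library was left out, at adjusted p-values of 0.0635 to 0.11. The longer model made up 28.1% to 30.0% of *S-Lap7* in mutants and 32.8% to 36.2% in w1118, a difference of -5.36 percentage points that did not pass the test (limma adjusted p = 0.345).

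All 3 models of *S-Lap3* were lower in mutants by similar amounts. The spliced model FBtr0076286 had 106.9, 118.5 and 125.1 FPKM in mutants, against 220.8, 196.4 and 188.1 FPKM in w1118. FBtr0334098, a single exon that starts farther along the gene, averaged 59.9 ± 2.4 FPKM in mutants and 96.2 ± 10.9 FPKM in w1118 (SD, n = 3 each). FBtr0334099, which shares that start and runs on to the end of the gene, averaged 14.3 ± 1.5 FPKM in mutants and 24.1 ± 0.5 FPKM in w1118 (SD, n = 3 each). Their log2 fold changes were -0.78, -0.67 and -0.72 in that order (limma adjusted p = 0.00236, 0.00472 and 0.00293). Shares of the gene differed by at most 1.53 percentage points, with adjusted p-values of 0.803 to 0.999. Over the whole family, 11 of 12 isoforms were called lower, against 14.4% of the isoforms tested, and the exception was FBtr0087092. That share covers isoforms of all levels from 0.5 FPKM and was not matched to the abundance of the members. In 5 members the only isoform has the same FPKM as the gene, so its call repeats the one at gene level. The call for the single isoform of *S-Lap5*, at an adjusted p of 0.0335 by limma, was lost in 5 of the 6 fits that left out 1 library, at adjusted p-values of 0.0701 to 0.0961.

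Peaks of m6A were described in mutants only, from the list that the authors made by comparing IP with input over the 3 replicates together. No replicate spread and no test of the genotypes comes from it. Of its 21991 rows, 12 were assigned to S-Laps, and all 8 members had at least 1 peak in the 3′ UTR. At this level of expression that is common, since 72.4% of all tested genes and 89.9% of the genes at least as abundant as *S-Lap5* had one. All 8 members also kept a 3′ UTR peak at an adjusted p under 0.05 and a log2 enrichment of at least 1, as did 84.8% of the genes at least as abundant. The peaks of 7 members reached the last annotated base of the gene.

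**Figure D4:**
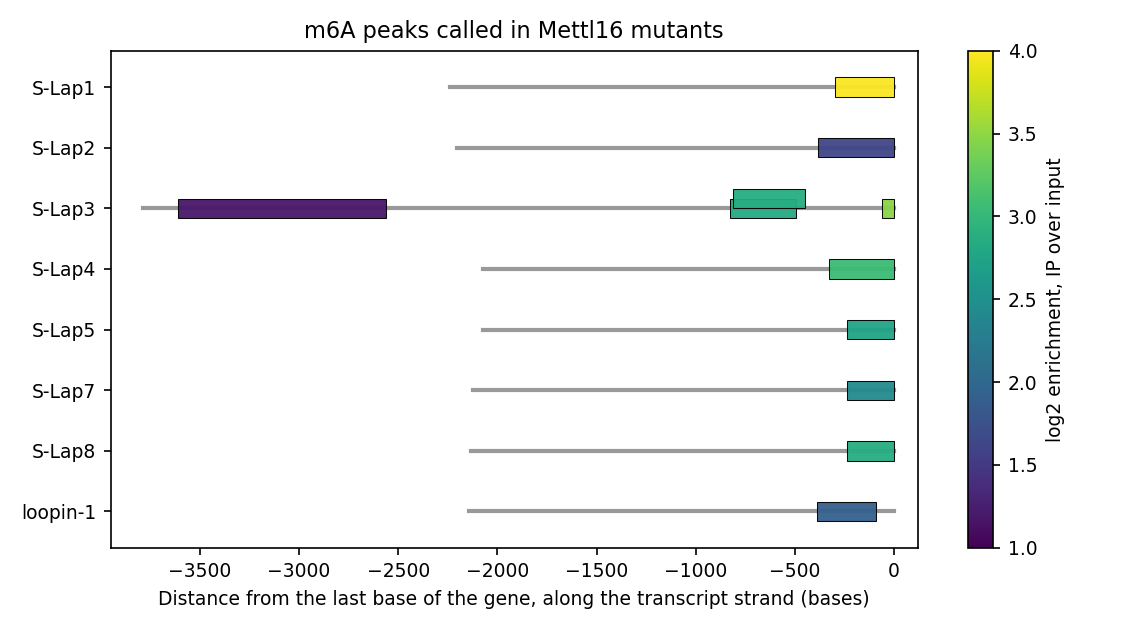
Position of the m6A peaks of each S-Lap in *Mettl16* mutants, as distance in bases from the last base of the gene along its strand, with the gene as a grey line and peaks coloured by log2 enrichment of IP over input. One row of 86759 bases assigned to *S-Lap4* is left out, and 1 of a pair of overlapping *S-Lap3* rows is drawn raised. In 7 genes a peak ends at the last base, in *loopin-1* it ends 89 bases before it, and *S-Lap3* also has a peak near its start.

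Enrichment differed among members. *S-Lap1* had the strongest short peak, with a log2 enrichment of 3.98 over 300 bases at 3L:8619175-8619474, which placed it at percentile 92.0 of all rows. Its tandem neighbour *S-Lap2* had one of the weakest, 1.61 over 386 bases at 3L:8621706-8622091, at percentile 27.5. The last 53 bases of *S-Lap2* overlap *GAPsec*, a gene on the minus strand with 5.93 FPKM in mutants and 4.88 FPKM in w1118. *S-Lap4* had a peak of 3.04 at 3L:10492608-10492934. On 2R, *S-Lap5* had 2.74 at 2R:13598513-13598750, *S-Lap7* had 2.42 at 2R:13778124-13778363 and *S-Lap8* had 2.85 at 2R:16492995-16493233. The median log2 enrichment was 2.84 over the 12 rows and 2.32 over all rows.

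*S-Lap3* carried 4 of the 12 rows. A row in the 5′ UTR, at 3L:10465367-10466411, had the lowest enrichment of the family, 1.18. It spans 1045 bases of the genome, and the model it was assigned to, FBtr0076286, has 774 bases of intron. The merged exon length of the gene, 3014 bases in a span of 3788, leaves out all of that intron. The intron therefore lies ahead of the start of the single-exon models, and the span of the row includes part of it. In the 3′ UTR, 2 rows that share 317 bases had 2.83 and 2.86, and a row of 61 bases at the far end, 3L:10468914-10468974, had 3.47 with the highest adjusted p of the 12, 0.017. The far row lies in the part of the gene that only FBtr0334099, the least abundant of its models, covers.

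The peak of *loopin-1*, at 2R:16536699-16536997, had a log2 enrichment of 1.90, at percentile 36.5. It was assigned to FBtr0087092 but ran 33 bases past the end of that model. The region that the authors compared between genotypes at this gene is longer, 2R:16536699-16537086, and takes in all 122 bases beyond the end of FBtr0087092, where FBtr0113086 ends. Regions in 4 members, *S-Lap1*, *S-Lap3*, *S-Lap8* and *loopin-1*, are among the 3088 rows of that table, and for *S-Lap3* it is the region in the 5′ UTR. The genotype values of those regions are the authors' own comparison and were not used here.

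The other row of *S-Lap4*, with the highest enrichment of the family, 4.43, spans 86759 bases at 3L:10481412-10568170. It starts at the first annotated base of *Rbfox1* (3L:10481412-10594012) and contains all of *S-Lap4*, so it cannot be assigned to *S-Lap4* alone.

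Among the other genes of the M17 family, *grsm* was called lower and *Dip-B* was not. *grsm*, or granny smith, had 45.0, 47.5 and 44.4 FPKM in mutants, against 62.9, 59.9 and 58.8 FPKM in w1118, a log2 fold change of -0.40 (limma adjusted p = 0.000632). *Dip-B*, a dipeptidase gene, had 47.1, 46.7 and 44.3 FPKM in mutants, against 39.8, 42.5 and 43.8 FPKM in w1118, a log2 fold change of 0.13 (limma adjusted p = 0.0958). On average both lay above *S-Lap5*, though *Dip-B* and *S-Lap5* overlapped in w1118, and both lay well below the other S-Laps.

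Of 14 genes listed for the spermatid mitochondria, 7 were called lower, 1 was called higher and 6 were not called. Their median log2 fold change was -0.26, beside 26.7% lower, 22.9% higher and a median of 0.01 over all tested genes. The 6 not called were *nmd*, *Pink1*, *milt*, *Opa1*, *rho-7* and *Drp1*. In RNA of whole males, listed genes that other tissues also express do not report on spermatids alone. One listed gene called lower, *dj*, is also among the spermatid markers below. *fzo*, the mitofusin that fuses spermatid mitochondria, averaged 15.2 ± 1.1 FPKM in mutants and 28.1 ± 1.8 FPKM in w1118 (SD, n = 3 each), with a log2 fold change of -0.84 (limma adjusted p = 7.46e-05). *Cyt-c-d*, the cytochrome c of the male germline, had a log2 fold change of -0.57 and *park*, the fly parkin, one of -0.58 (limma adjusted p = 0.000383 and 0.000473). *Marf*, a broadly expressed mitofusin, was the gene called higher, with 54.2 ± 0.3 FPKM in mutants and 44.1 ± 1.8 FPKM in w1118 (SD, n = 3 each).

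Of the 21 spermatid markers, 17 were called lower, 2 higher and 2 not, with a median log2 fold change of -0.52, near the -0.46 of the S-Laps. Over all tested genes 26.7% were called lower and 22.9% higher, and 39.6% were called lower among genes at least as abundant as *S-Lap5*. *ProtA*, a protamine, had a log2 fold change of -1.47 (limma adjusted p = 3.02e-05), and *d-cup*, a gene transcribed after meiosis, one of -1.08 (limma adjusted p = 3.02e-05). *Tpl94D*, a transition protein that replaces histones before the protamines, went the other way, with 66.1, 70.2 and 76.4 FPKM in mutants, against 3.51, 2.77 and 3.35 FPKM in w1118. The other marker called higher was *Mst84Dd*, with a log2 fold change of 0.32. Regulators of testis transcription were called lower in 10 of 14 cases and higher in 1, beside the same shares over all tested genes, with a median of -0.35. Among these regulators *wuc*, *topi* and *kmg* had log2 fold changes of -1.16, -0.70 and -0.87 (limma adjusted p = 1.66e-05, 0.000161 and 0.000164). The regulator called higher was *Taf12L*, at 0.55. Because 1 is added to FPKM, log2 fold changes of genes at low FPKM understate the relative change. *kmg*, at 1.48 FPKM in mutants and 3.51 FPKM in w1118, kept 42.1% of its w1118 level.

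Markers of other male tissue differed from list to list, and their counts stand beside the same 26.7% lower and 22.9% higher over all tested genes. All 12 accessory gland genes were called lower, at a median of -0.71 on the log2 scale and a summed level of 4281 to 5151 FPKM in mutants and 7132 to 7929 FPKM in w1118. Y-linked fertility genes, expressed in spermatocytes, were called lower in 5 of 8 tested, *CCY*, *ARY*, *kl-5*, *ORY* and *WDY*, with a median of -0.44. At their low FPKM the added 1 shrinks log2 fold changes, so this median cannot be set beside that of the S-Laps. *kl-5*, for example, kept 31.9% of its w1118 level but had a log2 fold change of -0.68, and *CCY* kept 45.6% with -0.85. Early germline markers were called lower in 2 of 4 tested, *bgcn* and *aub*, at summed levels of 6.86 to 7.78 FPKM in mutants and 10.8 to 12.4 FPKM in w1118. Genes listed as testis soma markers were called lower in 1 of 5 tested, *upd1*, and higher in 2, *zfh1* and *Fas3*. Their summed levels were 20.2 to 20.5 FPKM in mutants and 18.3 to 18.9 FPKM in w1118. *Fas3* alone averaged 10.3 FPKM in mutants and 8.73 FPKM in w1118. *tj*, too low to be tested, averaged 0.416 FPKM in mutants and 0.566 FPKM in w1118. In RNA of whole males these genes need not report on testis soma alone, so the sum does not measure that tissue. The part that the amount of germline or gland tissue has in the lower S-Lap levels was not tested.

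The 5 genes outside the family whose levels followed its sum most closely over the 6 input libraries, among 3647 genes of at least 20 FPKM, were *CG5565*, *TTLL6A*, *bru1*, *CG14740* and *CG13088*. Likeness was the root mean square difference between each gene's log2(FPKM + 1), centred on its own mean, and that of the family sum. For *CG5565*, the closest, it was 0.0082, with 52.3, 55.4 and 56.9 FPKM in mutants, against 83.9, 74.8 and 74.1 FPKM in w1118. For *TTLL6A*, a tubulin tyrosine ligase-like gene, it was 0.0118, and for *bru1*, which encodes an RNA-binding protein, 0.0156. *CG14740* and *CG13088* stood at 0.0163 and 0.0182.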

How the data were processed

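Poly(A) RNA of *Mettl16* mutant and w1118 males was profiled by MeRIP-seq. The authors used fastp, FastQC, HISAT2 (*D. melanogaster* v107) and StringTie; versions were not given in the sources used here. The deposited gene and isoform FPKM and the isoform read coverage per base, a signal not scaled to depth, come from StringTie on the input libraries. The authors called peaks with exomePeak on pooled replicates; the deposited log2 enrichment of IP over input and adjusted p-value of each peak are theirs. Peak starts count from 0 in the files and from 1 here. Coordinates are those of the deposited tables and equal RefSeq's for Release 6 in 8 of 8 members.

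The members and gene lists were chosen with earlier results of these data known. Groups came from the labels, with 3 input libraries per genotype. The members were found by gene name. Two-sided limma tests (version 3.58.1, R 4.3.3, with a trend) were run on log2(FPKM + 1) for every gene whose mean reached 0.5 FPKM, and p-values were adjusted over all of them by the Benjamini-Hochberg method, with a threshold of 0.05. Isoform levels were tested likewise. For isoform shares, limma was applied to the arcsine square root, for isoforms with a mean share of 1% to 99% in genes of at least 2 isoforms and a summed mean of at least 1 FPKM; a call also needed a change over 5 percentage points. Replicates came from separate preparations. In a simulation based on these libraries, 56% of falls of 0.5 and 90% of falls of 1 on the log2 scale were recovered among 13866 genes. Far fewer genes were changed in it than were called in the data, which makes the adjustment stricter. Its rates therefore do not give the sensitivity of the reported fit. Depth was derived from coverage over FPKM. Tables were joined with Python 3.11.15, pandas 2.3.3 and NumPy 2.4.6, and figures drawn with matplotlib 3.10.9.

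The text names all members with their isoforms and peaks, *Mettl16*, up to 3 called genes of a list with the smallest adjusted p, and the 5 genes most like the family; genes called against the direction of their list, *ORY*, *WDY* and the genes that overlap members were added after their values were seen. The tests were repeated with other pseudocounts, filters and scalings, with the replicate number as a block and without each library in turn; peaks were recounted at a stricter threshold and levels reordered by coverage. Left out were 9 further per-sample columns of the gene table, 18 of the isoform table, and the authors' columns of fold changes and p-values between genotypes for genes and peaks. Sequences, promoters and the w1118 peak list were not analysed here.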

Additional observations from a re-analysis of the deposited data

How the results depend on the processing

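All 8 members kept their direction in all 12 alternative fits at gene level, and all 8 stayed called in 11 of them; under quantile normalization *S-Lap5* had a log2 fold change of -0.14 (limma adjusted p = 0.0721) and 7 were called. Leaving out 1 library kept 8 members called, and the members called higher stayed at 0. The median of all genes was 0.06 on the log2 scale under median scaling, against 0.01. At isoform level, leaving out 1 library left 9 to 10 isoforms of members called lower against 11, and all isoforms called higher numbered 1676 to 2143 against 2537. *loopin-1* FBtr0087092 reversed to 0.0021 without w1118 replicate 1, in a range of -0.091 to 0.0021, and the share of *S-Lap3* FBtr0334099 reversed to -0.0016, -0.0030 and -0.0029 without mutant replicate 1, mutant replicate 2 and w1118 replicate 1, in a range of -0.0030 to 0.0047. Share calls over all isoforms fell to 164 to 241 higher and 181 to 239 lower, against 384 and 379, with fewer libraries, and the *loopin-1* share kept its call at adjusted p-values of 0.0109 to 0.0121. Libraries with the same replicate number did not deviate together (correlations of -0.036, -0.061 and -0.027). With the replicate number as a block, 8 members stayed called at gene level, isoform level gave 1516 higher and 2279 lower calls against 2537 and 3452, and share gave 50 higher and 44 lower, with 0 members called either way and an adjusted p of 0.0701 for both *loopin-1* models. All 8 members kept a 3′ UTR peak at an adjusted p under 0.05 and a log2 enrichment of at least 1. Ordered by summed isoform coverage, or by summed isoform FPKM, an order added after seeing the data, 5 members kept their place in mutants and 6 in w1118, with *S-Lap3* moving up to place 5 in both. The cause of these differences was not tested.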
